A study of Mus musculus with 24 samples.

Results

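Endothelial and capillary marker genes were followed in whole left lung lobes of newborn mice: the 10 genes Pecam1, Cdh5, Kdr, Tek, Tie1, Car4, Ednrb, Apln, Aplnr and Plvap, chosen by symbol from the 23420 genes of each table. Each of the 10 symbols was found in all 4 tables. The 24 lungs form 8 groups of 3, at postnatal day 2 (P2) and postnatal day 5 (P5). Mutants titled Sox9Cre; Vangl2f/f lose the planar cell polarity gene Vangl2, and those titled Sox9Cre; Ror2f/f lose the Wnt5a receptor gene Ror2, in cells that expressed Cre from the Sox9 locus. Each mutant set has its own controls, labelled WT, so every comparison below is mutant over control within 1 table. The controls are titled Control(Vangl1/2) and Control(Ror2), and the first title names Vangl1 too without stating an allele. The strain is not given in the sources used here, and nothing says whether lungs of a group came from separate litters, so p-values measure the spread between these lungs. Sox9-Cre acts in the distal lung epithelium, so the endothelial cells that express the 10 genes were not the cells targeted there.

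The lung capillary bed is built by endothelial cells of more than 1 kind. Aerocytes are large thin cells that lie against the gas-exchange surface, are marked by Car4 and Ednrb, and carry Apln, while general capillary cells carry its receptor Aplnr and act as the progenitor pool. The bed expands strongly in the first days after birth, guided by VEGF made in the alveolar epithelium and read by Kdr, and by angiopoietins read by Tek with its partner Tie1. In a bulk lung, fewer endothelial cells and less RNA per endothelial cell cannot be told apart.

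The values, called normalized counts here, are reads on a gene scaled by the size factor of that lung. They rest on 16178031 to 21546673 reads on genes in 23 lungs and on 13823693 in the other, and on 1299 to 30058 reads for a marker in a lung. Control replicate 1 of the Ror2 P5 table stands apart: 3835 of 4054 expressed genes on chromosomes 5 to 9 and X were listed at 0 there, against 16 of 8207 elsewhere. It was set to missing for those chromosomes, so Cdh5, Kdr, Plvap and Apln have 2 controls in that comparison. Mutant replicate 3 of the Vangl2 P5 table also stands apart. The summed level of 8 genes of developing T cells, a list written after the data were seen, was 24828 there and 85.8 to 420.2 in the 22 other lungs with all 8 genes measured. Rag1, which cuts the antigen receptor genes in thymocytes, was at 8683 in that lung and at 10.1 or less in the 5 others of its table. Control replicate 3 of the same table held the transcripts of liver and brown fat, with Alb at 3511 and Ucp1 at 2637 against 34.1 and 404.1 at most in the other 5 lungs. These 3 genes and Xist below were also chosen after their values were seen. The markers at Vangl2 P5, and Erg, Kit, Pdgfrb, Angpt2, Vegfa and Edn1, are therefore given with and without mutant replicate 3. Markers of heart muscle (Myh6, Myl7 and Tnnt2) summed to between 408.7 and 10421 per lung and overlapped between control and mutant lungs in each table.

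The targeted genes were read as a check of the labels. Vangl2 was at 249, 302 and 281 normalized counts in the P2 controls and at 241, 224 and 173 in the mutants, and at 369, 314 and 292 against 170, 148 and 166 at P5. Both pairs of groups stood apart without overlap, and neither difference passed the test (adjusted p = 0.241 at P2 and 0.0604 at P5, limma). Ror2 was at 451, 581 and 520 in the P2 controls against 479, 349 and 366, and at 526, 368 and 597 in the P5 controls against 362, 440 and 521, so both pairs overlapped (adjusted p = 0.250 and 0.692). The genotype entries of the P2 Ror2 mutants name Vangl2f/f and those of the P5 Vangl2 mutants name Ror2f/f, against their titles. Read crosswise, Ror2 was at 611, 478 and 487 in the Vangl2 P5 controls and at 541, 351 and 273 in the mutants, a log2 fold change of -0.48 against -0.38 in the Ror2 P2 and -0.16 in the Ror2 P5 mutants. Vangl2 was at -0.21 in the Ror2 P2 mutants and -0.28 in those of Ror2 P5. None of these passed the test (lowest adjusted p = 0.250), and groups here follow the titles.

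Upstream sequences are shown for 4 of the genes, picked after their log2 fold changes at Vangl2 P5 were seen. These were -0.70 for Kdr and -0.49 for Tek against 0.07 for Car4 and -0.08 for Ednrb, none past the test. Without mutant replicate 3 they were -0.53, -0.36, 0.04 and 0.03. Apln, which aerocytes also carry and whose sequence is not shown, was at -0.64. No test was made between the genes, and any link between sequence and fold change was not tested. Each is the 250 bases before the RefSeq start on GRCm38.p6, written 5′ to 3′ on the strand of the gene, with the letters GGAA and their reverse complement TTCC, the core read by ETS factors, in capitals.
Kdr, chr5:75978456-75978705, minus strand: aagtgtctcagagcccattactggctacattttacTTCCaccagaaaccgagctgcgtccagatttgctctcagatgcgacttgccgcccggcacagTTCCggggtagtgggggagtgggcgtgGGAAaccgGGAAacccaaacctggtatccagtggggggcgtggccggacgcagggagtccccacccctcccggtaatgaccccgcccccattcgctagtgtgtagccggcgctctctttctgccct
Tek, chr4:94739039-94739288, plus strand: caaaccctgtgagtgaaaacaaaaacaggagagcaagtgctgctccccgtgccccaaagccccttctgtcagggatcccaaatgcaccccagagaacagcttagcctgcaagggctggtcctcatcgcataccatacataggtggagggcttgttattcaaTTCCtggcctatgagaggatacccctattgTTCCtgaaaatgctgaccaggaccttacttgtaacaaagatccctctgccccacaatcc
Car4, chr11:84957504-84957753, plus strand: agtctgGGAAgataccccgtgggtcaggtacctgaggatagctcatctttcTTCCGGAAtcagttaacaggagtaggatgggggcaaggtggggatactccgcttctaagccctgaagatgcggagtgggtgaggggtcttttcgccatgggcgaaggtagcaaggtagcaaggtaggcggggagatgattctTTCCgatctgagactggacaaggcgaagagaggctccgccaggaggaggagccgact
Ednrb, chr14:103843702-103843951, minus strand: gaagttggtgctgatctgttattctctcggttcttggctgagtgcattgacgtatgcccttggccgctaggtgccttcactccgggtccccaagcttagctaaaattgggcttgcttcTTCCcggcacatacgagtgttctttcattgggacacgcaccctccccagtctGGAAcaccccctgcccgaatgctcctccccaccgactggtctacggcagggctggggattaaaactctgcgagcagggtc
The core stood 4 times before Kdr, 2 times before Tek, 4 times before Car4 and 2 times before Ednrb. It was also in 93.4% of the 32851 upstream windows of that length in the RefSeq table, so its presence sets none of the 4 apart. The longer CAGGAAG, which holds the core with flanking bases, stood before none of the 4 and before 10.8% of all windows. Read on both strands, ACAAT, the core read by SOX factors, stood 2 times before Tek, 0 times before the other 3 and in 27.7% of all windows. GATA was present 1 time before Kdr, 1 time before Tek, 3 times before Car4 and 0 times before Ednrb, and in 53.6% of all windows. RefSeq windows were at hand for 6 of the 10 markers. That of Tie1 lies mostly inside an annotated first exon and is not shown, and that of Apln held the core 3 times and CAGGAAG 1 time. The Ednrb window lies inside the gene as GENCODE annotates it (chr14:103814625-103844402), though outside annotated exons.

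Levels were first ordered within the controls, per kilobase of annotated exon so that genes could be compared. Cdh5, the cadherin of endothelial junctions, stood highest in every table, followed by Plvap, which forms the diaphragms of endothelial openings, and by Pecam1, an adhesion molecule of the same junctions. In the Vangl2 P2 controls these were at 5407 ± 379, 4271 ± 439 and 2332 ± 147 normalized counts per kb (SD, n = 3). Aplnr came 4th in every table, at 1310 ± 71.0 there. The markers ranked 5 to 10 at Vangl2 P2, Tie1, Kdr, Tek, Ednrb, Car4 and Apln, each differed from the next by less than the larger SD of the pair. At P5 the last place went to Ednrb in both control sets, with 632 ± 78.5 and 673 ± 28.9 per kb.

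Ratios within a lung do not depend on its size factor and can be set side by side across tables. In controls, Ednrb stood at 25.6 to 33.6 per 100 Pecam1 normalized counts in the 6 P2 lungs and at 15.2 to 17.7 in the 6 P5 lungs. Car4 went from 11.3 to 16.6 down to 8.62 to 10.96 per 100 Pecam1, and Aplnr overlapped between the ages at 30.6 to 35.6 and 32.0 to 53.4. Car4 and Ednrb were thus lower relative to Pecam1 in every P5 control than in every P2 control. Apln, which aerocytes also carry, is given per kb, scaled within each table. It was at 900 and 654 in the Vangl2 and Ror2 controls at P2 and at 917 and 992 at P5. The ages were deposited as separate tables, so age and table cannot be told apart, and no test was made.

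**Figure D1:**
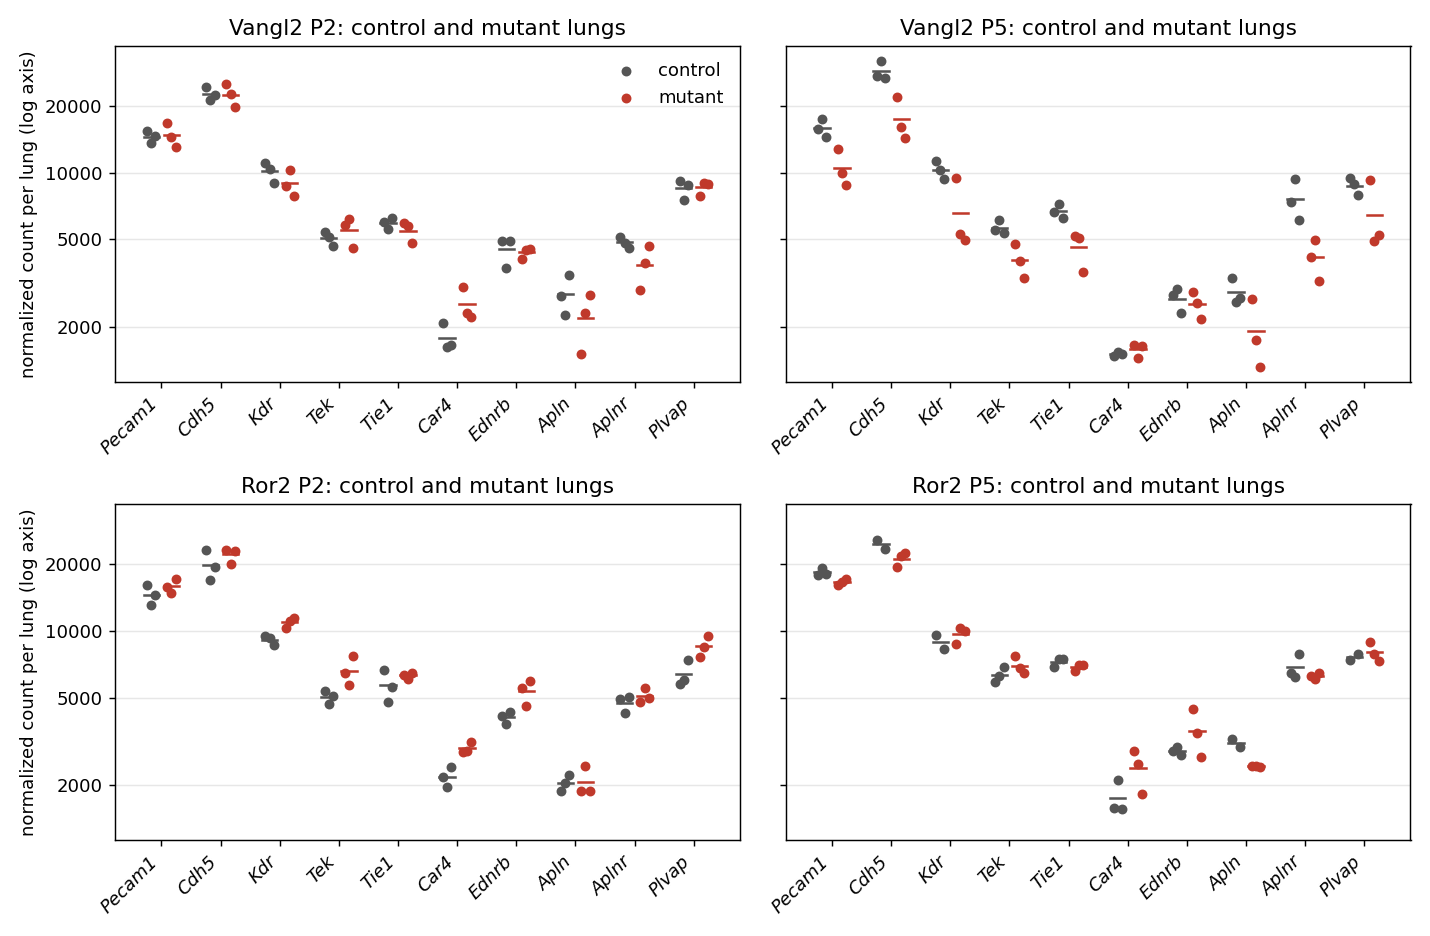
Normalized counts of the 10 markers in every lung on a log axis, 1 panel per table, with grey points for control and red points for mutant lungs and a bar at each mean. At Vangl2 P5 the mutants of Pecam1, Cdh5, Tek, Tie1 and Aplnr all lie below the controls, and at Ror2 P2 those of Kdr, Tek, Car4, Ednrb and Plvap all lie above them.

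Loss of Vangl2 at P5 went with lower levels of most of the markers. Of the 10, 9 had a log2 fold change below 0, with a median of -0.58 beside 0.00 over all 17410 genes tested, and 5 were lower in every mutant than in every control. Over all genes, 12.5% were lower without overlap. None of the 10 passed an adjusted p of 0.05 in the limma fit across all genes, where 0.0287% of genes were called lower, 0.534% higher and 0.563% in either direction. At an unadjusted p of 0.05, 7 of the 10 were lower, beside 8.35% of all genes lower and 18.8% in either direction. The count of called markers was 0 with edgeR, which called 0.396% of all genes, and 3 with DESeq2 (Pecam1, Cdh5 and Aplnr), which called 6.89%.

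Aplnr, the apelin receptor of general capillary cells, differed most. It was at 7360, 9351 and 6140 normalized counts in the controls and at 4173, 4986 and 3247 in the mutants. The highest mutant lay below the lowest control, and the log2 fold change was -0.88 ± 0.22 (SE), or 0.543 times the control level (adjusted p = 0.106). The lungs were also paired by replicate number. That pairing was taken from these same values and not from the labels, so paired p-values throughout are descriptive. Paired so, Aplnr passed (adjusted p = 0.00999). Without mutant replicate 3 the log2 fold change was -0.72 (adjusted p = 0.228, unpaired), and without both replicates 3 it was -0.86, with an adjusted p of 0.00521 paired and 0.239 unpaired.

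The junction genes came next. Cdh5 was at 27423, 31943 and 26919 in controls and at 21929, 16182 and 14327 in mutants (-0.74 ± 0.23 on the log2 scale, adjusted p = 0.154). Pecam1 was at 15774, 17498 and 14457 against 12799, 9958 and 8823, or -0.61 ± 0.20 (adjusted p = 0.165). Both lay lower in all 3 mutants than in every control. Without mutant replicate 3 the log2 fold changes were -0.61 for Cdh5 and -0.49 for Pecam1, with unadjusted p-values of 0.0219 and 0.0317 (adjusted p = 0.280 and 0.314). Neither passed when the lungs were paired (adjusted p = 0.0553 and 0.0524).

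The receptor tyrosine kinases had log2 fold changes between -0.49 and -0.70, none past the unpaired test. Tie1, the orphan partner of Tek, was at 6609, 7212 and 6258 in controls and at 5199, 5056 and 3567 in mutants (log2 fold change -0.56 ± 0.18, adjusted p = 0.164). Tek, the angiopoietin receptor, was at 5487, 6080 and 5359 against 4777, 4006 and 3344 (-0.49 ± 0.16, adjusted p = 0.173). Neither gene overlapped between the groups. Kdr, the main VEGF receptor of endothelium, was at 11270, 10253 and 9323 against 9481, 5301 and 4970 (-0.70 ± 0.25, adjusted p = 0.200). Here mutant replicate 1 lay inside the control range while the other 2 were far below it. Without mutant replicate 3 the values were -0.38 for Tie1, -0.36 for Tek and -0.53 for Kdr. Paired by number, Tie1 and Kdr passed (adjusted p = 0.0415 and 0.0453) and Tek did not (adjusted p = 0.0572).

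Apln, the ligand of Aplnr, and Plvap showed the same picture as Kdr. Apln was at 3356, 2600 and 2702 in controls and at 2686, 1757 and 1328 in mutants (-0.64 ± 0.25, adjusted p = 0.223, and 0.0416 when paired). Plvap was at 9453, 8891 and 7889 against 9266, 4892 and 5246 (-0.49 ± 0.25, adjusted p = 0.332). In both, mutant replicate 1 lay within the control range, and without mutant replicate 3 the values were -0.40 for Apln and -0.37 for Plvap. Mutant replicate 1 was also the only one of its table with low Xist, the transcript of the inactive X chromosome, at 19.2 against 19969 to 31655 in the other 5. Leaving out this lung took the median of the 10 markers from -0.58 to -0.77, with 8 lower at an unadjusted p of 0.05, beside 9.34% of all genes in that fit. Xist differed between lungs of the other tables too. It was high in Vangl2 P2 control replicate 1 and mutant replicates 2 and 3, and in replicate 2 of both Ror2 P2 groups. At Ror2 P5, where Apln has 2 controls, Xist was high in control replicate 2 alone of the lungs measured. The part of sex in the marker values was not tested in any table.

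Car4 and Ednrb, markers of aerocytes, lay close to 0, while Apln, which aerocytes also carry, did not. No test compared them. Car4, a membrane-bound carbonic anhydrase, was at 1483, 1540 and 1510 in controls and at 1662, 1454 and 1650 in mutants (0.07 ± 0.12 on the log2 scale). Ednrb, the endothelin receptor B, was at 2791, 2972 and 2323 against 2888, 2582 and 2188 (-0.08 ± 0.16). Both overlapped between the groups (adjusted p = 0.800 and 0.828). Without mutant replicate 3 the log2 fold changes were 0.04 for Car4 and 0.03 for Ednrb.

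Pairing by replicate number, applied to this table because its same-numbered lungs deviated together, took the called markers from 0 to 4 (Kdr, Tie1, Apln and Aplnr), all lower. The paired fit called 8.95% of all genes, with 3.48% of all genes called lower. Without both replicates 3 the paired fit called 2, Aplnr and Apln (adjusted p = 0.0473), beside 4.66% of all genes called lower. Leaving out mutant replicate 3, the lung with developing T cell transcripts, left 9 of the 10 log2 fold changes in their direction, Ednrb moving to 0.03, and the median at -0.39, with 5 lower at an unadjusted p of 0.05, beside 5.99% of all genes. Without both replicates 3 the median was -0.44, with 3 lower at that p, beside 4.21% of all genes. The part of the T cell transcripts in the levels of that lung was not tested beyond this.

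**Figure D2:**
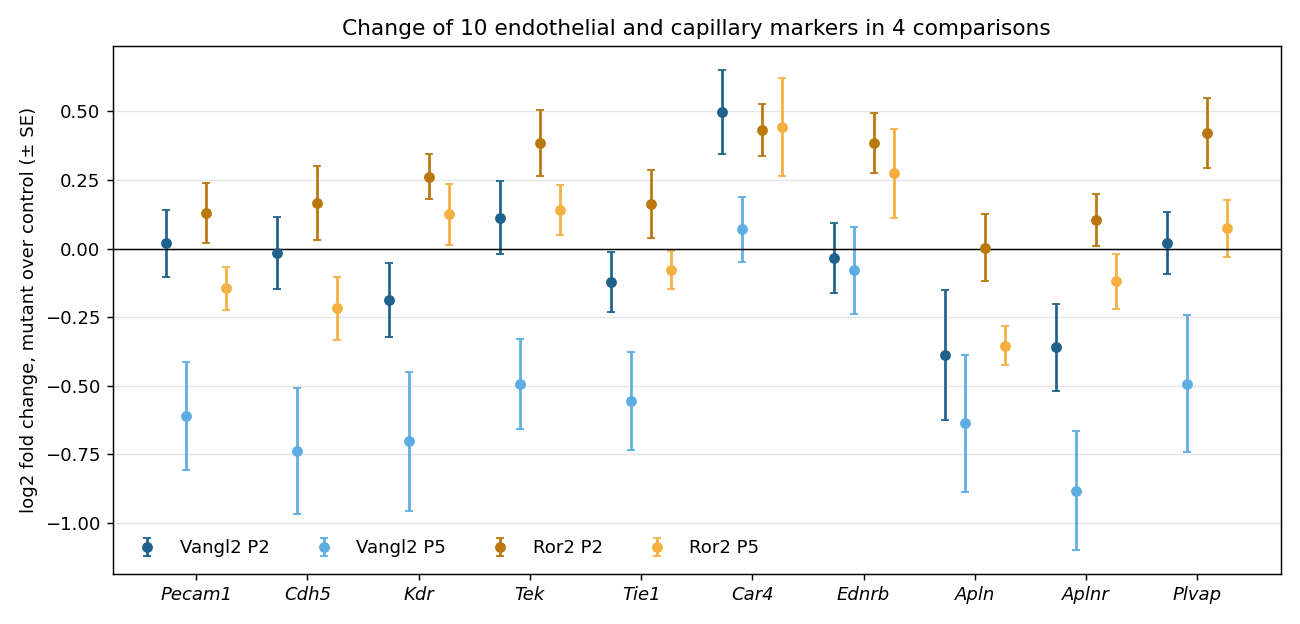
Log2 fold change of each marker, mutant over control, in the 4 comparisons, with bars of 1 SE from the limma fit. At Vangl2 P5 (light blue) 9 of 10 points lie below 0, at Ror2 P2 (dark orange) all 10 lie above it, and Car4 is above 0 in each comparison.

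At P2 the Vangl2 mutants showed no shared shift: 4 markers lay above 0 and 6 below, with a median log2 fold change of -0.03. None passed the test, where 3.59% of 17448 genes did (1.5% higher and 2.09% lower), and none passed with edgeR or DESeq2. At an unadjusted p of 0.05 there was 1, Car4, which was also the only one whose groups did not overlap, beside 11.7% of all genes higher by the first measure and 14.6% by the second. Car4 was at 2097, 1623 and 1656 in controls and at 3056, 2332 and 2224 in mutants (log2 fold change 0.50 ± 0.15, 1.41 times, adjusted p = 0.118). Its lowest mutant lay just above its highest control.

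The apelin pair leaned the other way at P2 with mutant lungs that varied widely. Aplnr was at 5114, 4830 and 4589 in controls and at 2961, 3904 and 4641 in mutants (-0.36 ± 0.16, adjusted p = 0.232). Apln was at 2771, 2282 and 3447 against 1509, 2316 and 2787 (-0.39 ± 0.24, adjusted p = 0.372). In both, mutant replicate 1 was lowest and mutant replicate 3 lay among the controls, and without mutant replicate 3 Aplnr passed (-0.51, adjusted p = 0.0450), in a fit that called 7.24% of all genes lower. The junction genes were level at this age, with log2 fold changes of 0.02 ± 0.12 for Pecam1 and -0.01 ± 0.13 for Cdh5, and the other 5 markers lay between -0.19 and 0.11.

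Whether the Vangl2 effect differed between the ages was tested in 1 fit of the 12 lungs. Tek, Cdh5 and Pecam1 differed at an unadjusted p of 0.05, with P5 less P2 differences of -0.61 ± 0.22, -0.72 ± 0.26 and -0.63 ± 0.23, and none of the 10 passed the adjustment (lowest adjusted p = 0.577). Over all 17064 genes 0% passed and 8.44% were under the unadjusted p. For Car4 the difference was -0.43 ± 0.20 (adjusted p = 0.589). Without Vangl2 P5 mutant replicate 3, Tek, Cdh5 and Pecam1 were at -0.48, -0.59 and -0.51, and the lowest adjusted p was 0.735.

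Loss of Ror2 at P2 went with the opposite lean. All 10 markers had a log2 fold change above 0, with a median of 0.21 beside -0.01 over all genes, although for Apln it was 0.00. At an unadjusted p of 0.05, 5 were higher, beside 9.55% of all genes higher and 9.71% lower, and the same 5 did not overlap between groups, beside 13.4% of all genes higher in that way. None passed the adjusted test, nor did any gene among the 17541 tested (0%). With edgeR the count was 0, and with DESeq2, which called 3.80% of all genes, it was 1, Car4 (adjusted p = 0.0176).

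Car4 again led, at 2195, 1960 and 2413 in controls and 2830, 2876 and 3141 in mutants (0.43 ± 0.10, 1.35 times, adjusted p = 0.203). Ednrb was at 4123, 3796 and 4310 against 5513, 4592 and 5912 (0.38 ± 0.11, adjusted p = 0.203). Car4 and Ednrb were thus higher in every mutant lung than in every control, while Apln, which aerocytes also carry, was at 0.00 ± 0.12. Plvap was at 5736, 6007 and 7425 against 7652, 8464 and 9481 (0.42 ± 0.13), and Tek at 5340, 4682 and 5064 against 6443, 5698 and 7684 (0.39 ± 0.12). Kdr was at 9445, 9252 and 8666 against 10295, 11046 and 11458 (0.26 ± 0.08), all 3 with an adjusted p of 0.206. The remaining 4 with values above 0.1, Pecam1, Cdh5, Tie1 and Aplnr, lay between 0.11 and 0.17 and overlapped between the groups.

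At P5 the Ror2 mutants split: 5 markers lay above 0 and 5 below, with a median of 0.00. None passed the limma test, where 0.128% of 17179 genes did (0.0640% in each direction). At an unadjusted p of 0.05, 1 was higher, beside 10% of all genes, and 1 lower, beside 8.36%. With edgeR none passed, and with DESeq2, which called 4.65% of all genes, 1 did, Apln (adjusted p = 0.00765). Apln was at 3258 and 2992 in its 2 controls and at 2443, 2452 and 2434 in the mutants (-0.35 ± 0.07, adjusted p = 0.119). The mutants were tightly grouped below both controls, and the exact permutation test gave p = 0.2, the smallest that 2 against 3 lungs allow.

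Car4 leaned up here too, at 1585, 2114 and 1564 in controls and 2873, 2498 and 1835 in mutants (0.44 ± 0.18, 1.36 times, adjusted p = 0.249), with mutant replicate 3 inside the control range. Ednrb was at 2871, 2997 and 2751 against 4459, 3471 and 2703 (0.27 ± 0.16, adjusted p = 0.394). Mutant replicate 3 was lowest of the mutants for both genes. Cdh5 was at 25808 and 23508 against 19430, 21756 and 22492 (-0.22 ± 0.11), and Pecam1 at 17843, 19283 and 18146 against 16162, 16706 and 17107 (-0.15 ± 0.08). Together with Apln these 3 did not overlap, beside 14.3% of all genes lower in that way. Cdh5 and Apln had 2 controls there, with which groups lie apart more easily than with 3, and the share pools genes of both kinds. The other 5 lay between -0.12 and 0.14. Of the Ror2 differences between the ages, P5 less P2, 9 of 10 lay below 0, with a median of -0.24. Apln alone differed at an unadjusted p of 0.05 (-0.36 ± 0.15, adjusted p = 0.505), beside 9.51% of 16986 genes. None of the 10 passed the adjustment, where 0% of all genes did.

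The 2 mutants were then compared at each age. At P5 all 10 differences, Ror2 less Vangl2, were above 0. Kdr, Aplnr, Tek, Tie1 and Pecam1 were under an unadjusted p of 0.05, at 0.83 ± 0.32, 0.76 ± 0.25, 0.63 ± 0.19, 0.48 ± 0.19 and 0.46 ± 0.21, beside 4.73% of 16883 genes. None passed the adjustment (lowest adjusted p = 0.773 for Tek), where 0.0118% of all genes did. Without Vangl2 P5 mutant replicate 3 all 10 stayed above 0 and 3, Tek, Tie1 and Aplnr, were under the unadjusted p. At P2 it was Kdr, Ednrb, Aplnr and Plvap that were under the unadjusted p, at 0.45 ± 0.16, 0.42 ± 0.17, 0.46 ± 0.20 and 0.40 ± 0.17, beside 4.60% of 17133 genes, again with none past the adjustment (lowest adjusted p = 0.946). Car4 differed least at P2, by -0.06 ± 0.19.

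Car4 was therefore set against Pecam1 within each lung, a ratio chosen after its values were seen. At Vangl2 P2 it was 13.6, 11.97 and 11.3 Car4 per 100 Pecam1 in controls and 18.3, 16.1 and 16.9 in mutants. At Vangl2 P5 it was 9.40, 8.80 and 10.4 against 12.98, 14.6 and 18.7, and at Ror2 P2 13.6, 15.0 and 16.6 against 17.99, 19.3 and 18.4. These 3 comparisons did not overlap. At Ror2 P5 the ratios were 8.88, 10.96 and 8.62 against 17.8, 15.0 and 10.7, with mutant replicate 3 just under the highest control. The share of all genes whose ratio to Pecam1 was higher without overlap was 14.0%, 46.5%, 5.69% and 30.9% in the same order, so at Vangl2 P5, where Pecam1 itself lay lower, many genes behaved like Car4. In all 4 comparisons at once it was 1.27% of 16719 genes, and Car4 was not among them. Ednrb per 100 Pecam1 was higher without overlap at Vangl2 P5, at 22.6 to 25.9 against 16.1 to 17.7, and at Ror2 P2, at 30.8 to 35.1 against 25.6 to 29.6. Tek, which does not mark aerocytes, was higher relative to Pecam1 without overlap in the same 2 comparisons.

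**Figure D3:**
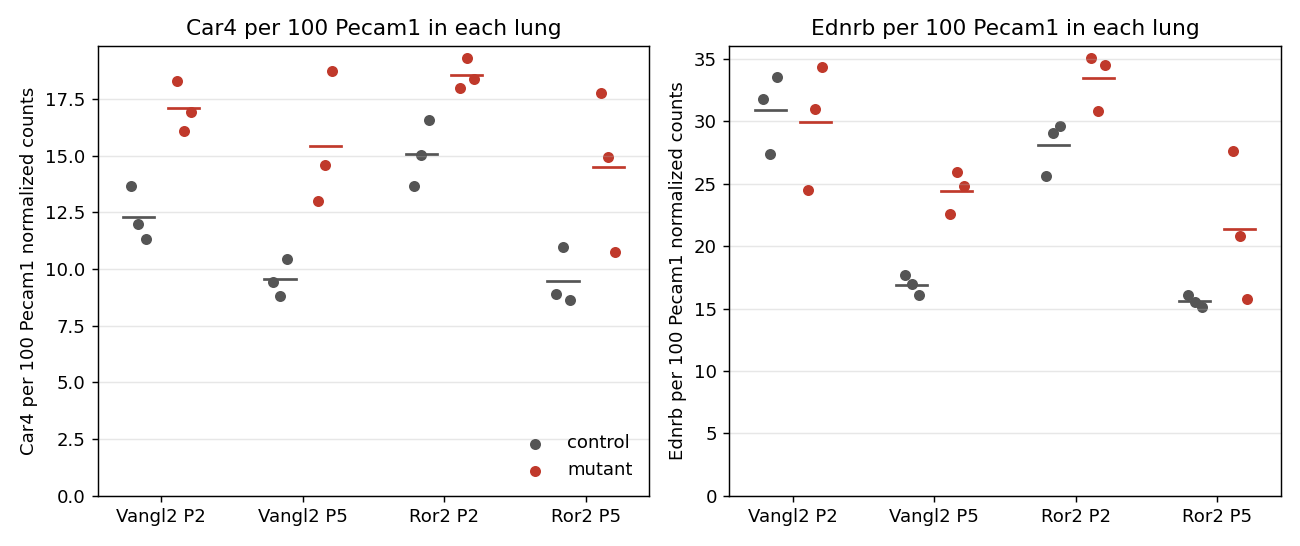
Car4 (left) and Ednrb (right) normalized counts per 100 Pecam1 normalized counts in each lung, with grey points for controls, red points for mutants and a bar at each mean, on axes from 0. Every mutant lies above every control for Car4 at Vangl2 P2, Vangl2 P5 and Ror2 P2, and the P5 controls lie below the P2 controls for both genes.

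Other endothelial genes were read from lists that do not hold the 10 markers. The pan-endothelial list shares Cd93 with the general capillary list and Sox17 with the arterial list, so these counts are not fully separate. Of 25 further pan-endothelial genes, 25 lay below 0 at Vangl2 P5 with a median of -0.35, and 8 were lower at an unadjusted p of 0.05. None was called, and 5 were called lower when the lungs were paired. Erg, an ETS factor of endothelium, named like Kit and Pdgfrb below after its values were seen, was at 2040, 2440 and 2155 in controls and at 1645, 1637 and 1497 in mutants (-0.47 ± 0.13, adjusted p = 0.121, and -0.43 without mutant replicate 3). All 25 stayed below 0 without mutant replicate 3, with a median of -0.32. At Ror2 P2, 22 of the 25 lay above 0, with a median of 0.21, and at Vangl2 P2 and Ror2 P5 they divided 13 to 12 and 16 to 9 with medians of 0.01 and 0.06.

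Capillary subtype genes outside the 10 were mixed. In whole lungs other cells may also express genes of these lists, and which cells gave the transcripts was not tested. Of 8 further general capillary genes tested, 8 lay below 0 at Vangl2 P5, among them Kit, the stem cell factor receptor, at 3872, 4572 and 4292 against 3022, 2585 and 1767 (-0.82 ± 0.20, adjusted p = 0.109, and -0.60 without mutant replicate 3). Of 10 further aerocyte genes 7 lay below 0 there, with a median of -0.33, and 1 was higher and 1 lower at an unadjusted p of 0.05. At Ror2 P2 the aerocyte list had 7 of 10 above 0 and the general capillary list 7 of 8, with medians of 0.25 and 0.24. Unpaired, no gene of these or of the arterial, venous and lymphatic lists was called in any comparison. Paired at Vangl2 P5, 1 general capillary, 1 arterial, 1 venous and 1 lymphatic gene were called lower, 1 venous gene higher and 0 aerocyte genes.

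Among the ligands, Vegfa, which the alveolar epithelium makes, was higher in every mutant than in every control at both Ror2 ages. At P2 it was at 14793, 14156 and 14341 against 21195, 20411 and 24287 (0.60 ± 0.10, adjusted p = 0.203), and at P5 at 9692, 10172 and 11084 against 16295, 15124 and 12542 (0.50 ± 0.11, adjusted p = 0.121). In the Vangl2 mutants it was at 0.22 ± 0.12 at P2, also without overlap, on the log2 scale. At Vangl2 P5 it was at 0.26 ± 0.19, and at 0.35 without mutant replicate 3. Angpt2, the angiopoietin made by endothelium itself, was lower in every mutant at Vangl2 P5, at 525, 735 and 683 against 421, 386 and 302 (-0.81 ± 0.19, adjusted p = 0.102, and -0.67 without mutant replicate 3). Angpt1, its mesenchymal counterpart, lay between -0.27 and 0.27 in the 4 comparisons and overlapped in each. Edn1, a ligand of Ednrb, was at 0.55 ± 0.36 at Vangl2 P5 (0.62 without mutant replicate 3) and 0.85 ± 0.33 at Ror2 P5, and overlapped in both. Unpaired, none of the ligands and coreceptors tested was called in any comparison, and paired at Vangl2 P5 1 was, Angpt2 (adjusted p = 0.0389).

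Other cell types moved in the same lungs. Pericyte genes, whose cells wrap the capillaries, had 7 of 9 below 0 at Vangl2 P5 with a median of -0.35, and summed to 14383, 12075 and 9225 in mutants against 17560 to 18528 in controls. None was called unpaired and 4 were called lower when paired. Pdgfrb was at 8769, 8325 and 8797 against 6652, 4814 and 3644 (-0.82 ± 0.22, adjusted p = 0.120, and -0.61 without mutant replicate 3). Neutrophil genes had 7 of 9 called higher at Vangl2 P2 and 3 of 9 at P5, where they summed to 10452, 17579.5 and 24313 in mutants against 3653 to 5048 in controls. At Vangl2 P2, 10 of 10 cell division genes were called lower, 3 of 10 alveolar type I genes (Col4a3, Lmo7 and Hopx) and 3 of 10 alveolar type II genes (Sftpd, Sftpa1 and Slc34a2) higher, Abcc9 of the pericyte list higher, Myh11 of the myofibroblast and smooth muscle list lower and Alas2 of the erythroid list lower. At Ror2 P2, where the markers lay higher, 10 of 10 cell division genes were lower at an unadjusted p of 0.05 with a median of -1.90, and 3 of 3 erythroid genes with a median of -1.90, none called. At Ror2 P5 the cell division genes were lower at that p in 9 of 10. Control replicate 3 of Ror2 P2 also held a neutrophil sum of 27467 against 5358 to 8338 in the other 5 lungs, and without it the markers at Ror2 P2 had a median of 0.19, with 4 higher at an unadjusted p of 0.05, beside 17.2% of all genes under that p in either direction. The alveolar type I genes had 9, 9, 10 and 7 of 10 above 0 in the Vangl2 P2, Vangl2 P5, Ror2 P2 and Ror2 P5 comparisons. In the myofibroblast and smooth muscle list 9 of 10 lay below 0 at Vangl2 P5, with a median of -0.56, and macrophage genes had 6 of 6 above 0. The part of these other cells in the marker levels was not tested.

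**Figure D4:**
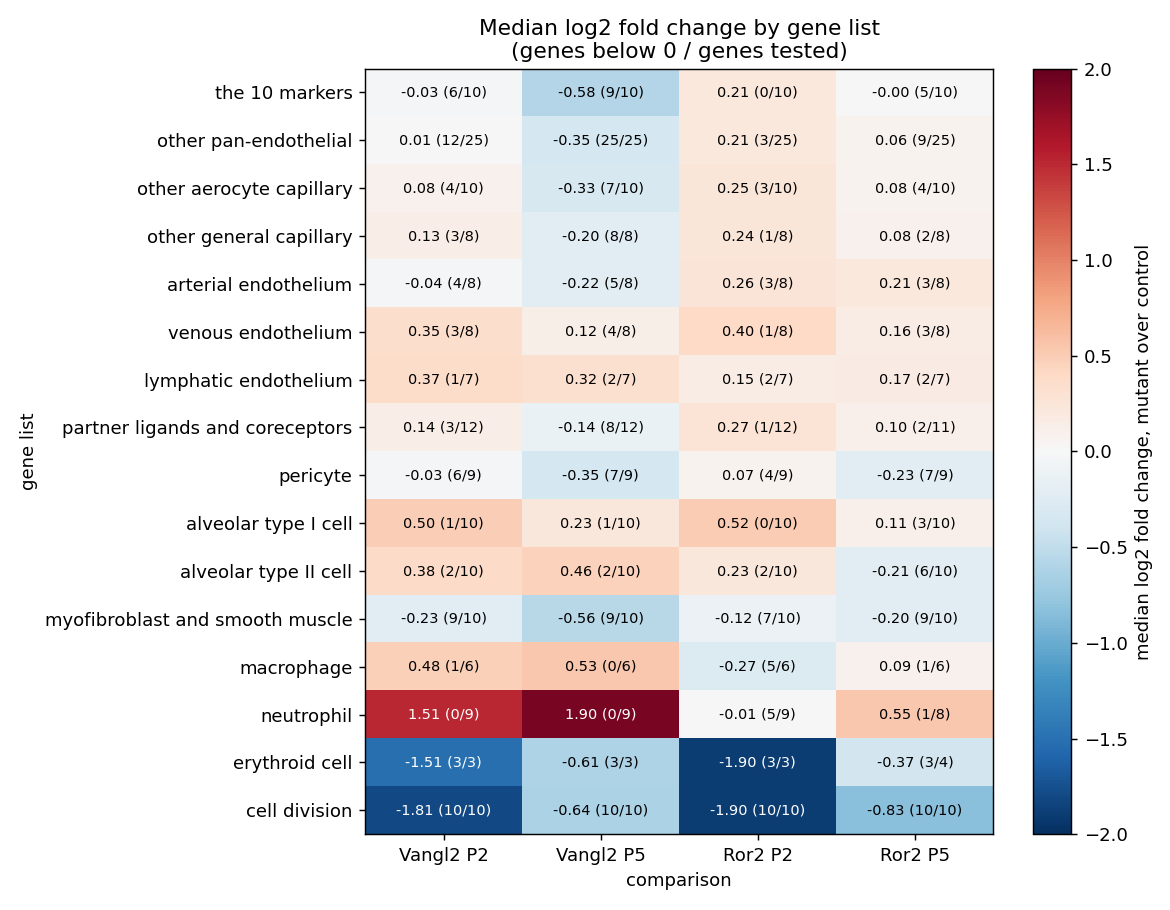
Median log2 fold change, mutant over control, of the 10 markers and 15 other gene lists in the 4 comparisons, with the number of genes below 0 of those tested in brackets. The 10 markers and the other pan-endothelial genes read -0.58 and -0.35 at Vangl2 P5 and 0.21 and 0.21 at Ror2 P2.

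How the markers varied together was described over the 24 lungs, as log2 values less the mean of each lung's group. Such values share a library and its size factor, so only their order is described. Of the 45 pairs, 42 had a Pearson r above 0, with a median of 0.38. Pecam1 and Cdh5 were the closest (0.96, 23 lungs), followed by each of them with Tie1 (0.84 and 0.83). Car4 and Aplnr were the farthest apart (-0.33, 24 lungs). Without the 3 Vangl2 P5 mutants 31 pairs were above 0 and the median was 0.27, with Pecam1 and Cdh5 at 0.93 and Car4 and Aplnr at -0.30. Among 16709 other genes, those most like the mean of the markers over the 24 lungs were Reep3 (0.91), Gdpd5 (0.88), Dgkh (0.87), Fnip2 (0.85) and Lyn (0.85), and none of the 20 most alike was on an endothelial list. Without the Vangl2 P5 mutants these 5 fell to between 0.63 and 0.75.

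**Figure D5:**
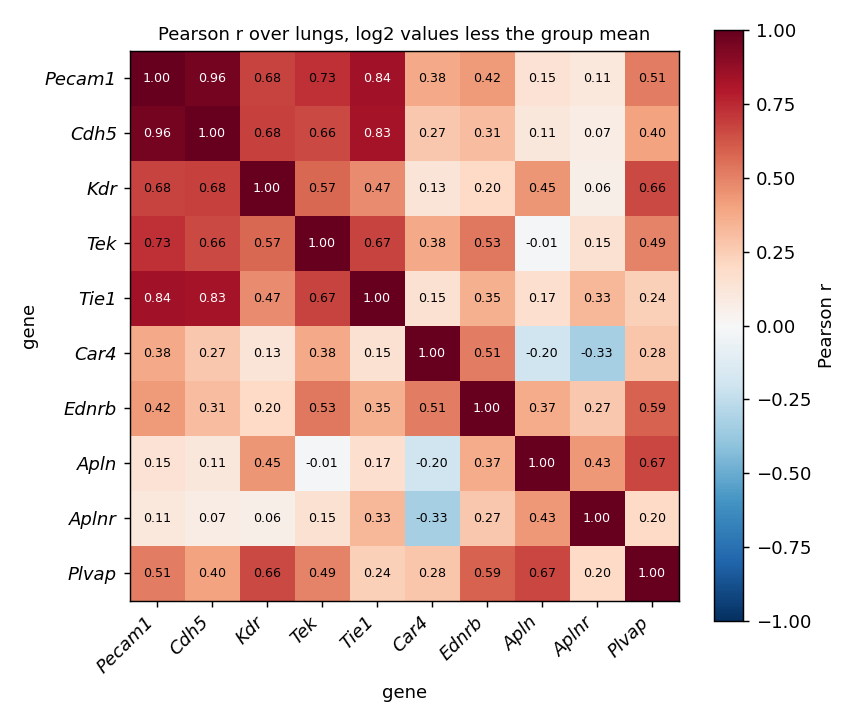
Pearson r between the 10 markers over 24 lungs (23 for pairs with Cdh5, Kdr, Plvap or Apln), from log2 values less the group mean, on a colour scale from -1 to 1. Pecam1, Cdh5 and Tie1 form the closest set, at 0.83 to 0.96, while Car4 and Aplnr stand at -0.33.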

How the data were processed

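RNA of whole left lobes was sequenced by the study. The authors deposited, for each table, normalized counts (a signal: reads per gene divided by a size factor) beside their own fold changes and p-values, which were not used here. DESeq2 and the mouse build mm10 are named in the submitters' processing notes, and the aligner is not given in the sources used here. Dividing by the step between low values gave whole reads for 100% of values within 0.02.

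Genes that reached a value of 1 in 3 or more lungs were tested with limma 3.58.1 (R 4.3.3) on log2(value + 1), so fold changes of low genes are understated, and p-values were adjusted by Benjamini-Hochberg over all genes. Recovered reads were tested with edgeR 4.0.16, which called 641, 69, 0 and 26 genes (Vangl2 P2, Vangl2 P5, Ror2 P2, Ror2 P5), and DESeq2 1.42.0, which called 1913, 1199, 666 and 798. The scripts were tested on simulated data. Same-numbered control and mutant lungs deviated together at Vangl2 P5 (r = 0.418, 0.358 and 0.238) while in each other table at least 1 such pair had an r under 0.1, so the numbers were taken as pairs at Vangl2 P5 only. That comes from the data and not from the labels, and does not show that lungs of the other tables were unpaired.

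Exon lengths came from GENCODE M21 on GRCm38. The markers and the 15 other lists were chosen with earlier results of these data known. The text names all 10 markers, Vangl2 and Ror2, up to 3 called genes of each list with the lowest adjusted p, 4 ligands, and the 5 genes most like the markers, besides genes named after their values were seen, such as Erg, Kit and Pdgfrb. Tissue markers, the ratio to Pecam1, the choice of genes shown with upstream sequences and fits without both replicates 3 were added after the data were seen.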

Additional observations from a re-analysis of the deposited data

How the results depend on the processing

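The count of called markers stayed at 0 under another pseudocount, no filter, trimmed-mean scaling and edgeR in all 4 comparisons. At Vangl2 P2 it moved to 1 (Car4, adjusted p = 0.0412) with a replicate block, which called 4.56% of all genes. Same-numbered lungs there had an r of 0.0381, 0.0544 and 0.117 and were not taken as pairs. The count was 0 to 1 over the fits without 1 lung (Aplnr without mutant replicate 3, where 13.6% of all genes were called). At Vangl2 P5 it was 4 with the replicate block, beside 8.95% of all genes called. With all 12 lungs of the age in 1 fit it was also 4 (Pecam1, Cdh5, Tie1 and Aplnr), beside 5.49%. It was 3 with DESeq2 and 2 with the block and without both replicates 3, beside 6.89% and 11.4%. At Ror2 P2 it was 1 with DESeq2 and 0 to 1 without 1 lung (Ednrb without mutant replicate 2, adjusted p = 0.0423). Those fits with a call called 3.80% and 4.93% of all genes. At Ror2 P5 it was 1 with DESeq2, beside 4.65% of all genes. For the 10 markers the block changed no other call, and their counts of differences called stayed at 0 throughout.

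Of the marker values and differences, 13 turned direction under some alternative. Without 1 lung the log2 fold changes ranged at Vangl2 P2 from -0.0718 to 0.101 for Pecam1, -0.0981 to 0.0763 for Cdh5, -0.169 to 0.0319 for Ednrb and -0.0666 to 0.0821 for Plvap, at Vangl2 P5 from -0.183 to 0.0266 for Ednrb, at Ror2 P2 from -0.119 to 0.0664 for Apln, and at Ror2 P5 from -0.0022 to 0.14 for Plvap, which was also -0.0022 with the block. With Ror2 P5 control replicate 1 as deposited, its zeros included, the log2 fold change of Cdh5 in Ror2 P5 was 4.645 and that of Apln in Ror2 P5 was 3.516. Among the differences, the fits without 1 lung ranged from -0.147 to 0.0891 for Ednrb in Vangl2 P5 minus P2, from -0.131 to 0.192 for Car4 in Ror2 P5 minus P2 and -0.290 to 0.0712 for Ednrb in Ror2 P5 minus P2, and from -0.182 to 0.0776 for Car4 in Ror2 minus Vangl2 at P2.

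Over all genes, the calls (626, 98, 0 and 22 in the order Vangl2 P2, Vangl2 P5, Ror2 P2, Ror2 P5) were 45, 956, 0 and 3 with 12 lungs in 1 fit. Without 1 lung they ranged from 1 to 2333, 0 to 54, 0 to 859 and 0 to 823. The replicate block called 1558 at Vangl2 P5, 1 at Ror2 P2 and 1 at Ror2 P5. Without both replicates 3, an alternative chosen after seeing the data, Vangl2 P5 had 1 call, and 1906 with the block. The causes were not tested. With 3 lungs a group the exact permutation test cannot go below 0.1.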
